A study of Homo sapiens with 9 samples.

Results

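The 10 genes described here, CCN1, CCN2, ANKRD1, AMOTL1, AMOTL2, NUAK2, AJUBA, LATS2, AXL and F3, are commonly used readouts of the transcriptional coactivators YAP and TAZ. A member was any of these symbols carried alone by a probe set, and where a gene had several probe sets the brightest over all arrays was used. All 10 members were measured, out of 22109 genes in all. The cells were MDA-MB-231, an established human breast cancer line from a pleural effusion, exposed to YM-155 (sepantronium bromide), a compound first selected for lowering expression of survivin. The 3 groups had 3 arrays each: cells with no treatment (control), cells given YM-155 in rising increments to a total of 83 ng/ml and taken at 8 h, and cells given 14.6 ng/ml, stated as the LC50, and taken at 20 h. All cells were of 1 line in the same serum-containing medium, YM-155 was dissolved in DMSO and diluted in salt solution, no vehicle or time was named for the control, and the labels do not state whether replicates were separate cultures, so the p-values may rest on technical spread alone. Both comparisons with control used the same 3 control arrays, and the 8 h and 20 h groups differed in dose as well as time.

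YAP and TAZ have no DNA-binding domain of their own and act through the TEAD transcription factors. In the Hippo pathway, the kinases LATS1 and LATS2 phosphorylate YAP and TAZ and keep them in the cytoplasm; when that kinase activity is low, YAP and TAZ enter the nucleus and raise genes of matrix signalling, cytoskeletal tension and growth. Some of the targets, such as LATS2 and the angiomotin-like genes, encode inhibitors of YAP and TAZ and form a negative feedback. MDA-MB-231 cells carry an inactivating mutation of NF2, an upstream activator of the pathway, and are a much-used model of high YAP and TAZ activity.

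The 10 targets did not move as a block. NUAK2, LATS2, CCN2 and AMOTL2 rose at both 8 h and 20 h, by 0.66 to 1.99 on the log2 scale at 8 h and by 1.26 to 1.87 at 20 h. CCN1 rose at 20 h (0.69) and did not pass at 8 h (0.21), AJUBA fell at both times (-0.61 and -0.29), and ANKRD1, AXL, F3 and AMOTL1 passed the test in neither comparison. In limma, with p-values adjusted over all genes (Benjamini-Hochberg) and calls at an adjusted p under 0.05, 4 members were higher and 1 lower at 8 h, where 5.93% of all genes were higher and 6.28% lower (12.2% in either direction). At 20 h, 5 members were higher and 1 lower, against 13.1% of all genes higher and 17.2% lower. All 10 members were among the 11054 genes above the median level of all genes. Fitted alone, 1427 of these brighter genes were higher and 1603 lower at 8 h, and 2456 higher and 3694 lower at 20 h. The shares called among brighter genes were thus larger than those over all genes. The median difference of the members was 0.155 at 8 h and 0.381 at 20 h, beside -0.00305 and 0.0284 over all genes. Without control replicate 3, the members' medians were 0.269 and 0.544. Every array of 1 group lay beyond every control array for 4 members above and 2 below at 8 h, against 12.9% and 14.5% of all genes, and for 6 above and 1 below at 20 h, against 19.2% and 21.4%. The 6 include F3, which did not pass and whose lowest 20 h array (10.0504) was barely above its highest control (10.046). With 3 arrays a group, the smallest exact permutation p is 0.1, and the fit across all genes was used instead.

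**Figure D1:**
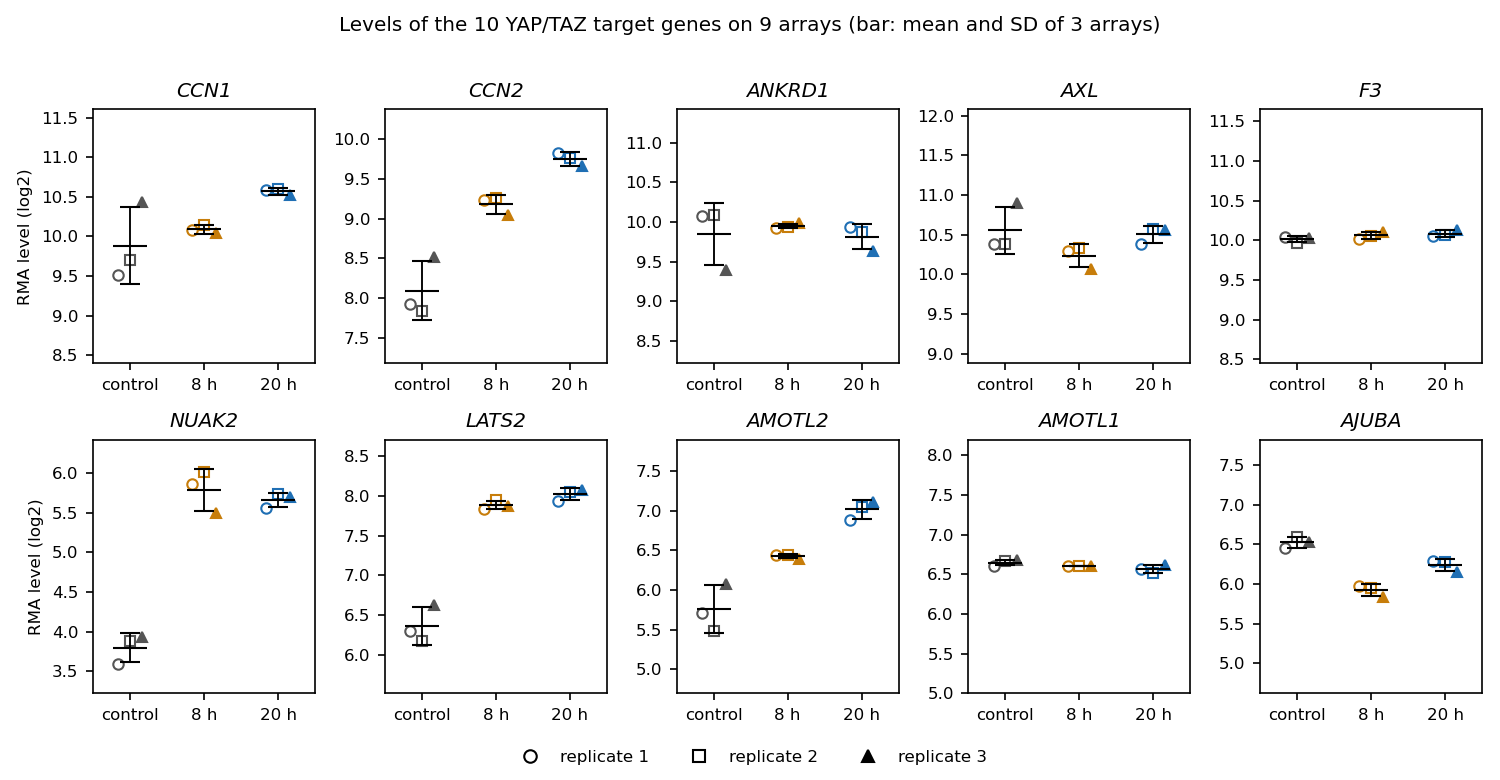
Level of each of the 10 genes on every array, as the RMA value on the log2 scale (vertical axis, the same span of 3.2 log2 units in every panel), for control, 8 h and 20 h (horizontal axis). Symbols are the replicate numbers in the labels, and the bar is the mean with the SD of 3 arrays; NUAK2, LATS2, CCN2 and AMOTL2 have every treated array above every control array, while F3 lies between 9.97 and 10.13 throughout.

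To show what the members share in sequence, the 250 bases before their start were read from the RefSeq promoter table (GRCh38.p14), in which 9 of the 10 members matched, with 12 starts. CCN1 was not matched. The windows were searched on both strands for the TEAD core GGAATG, the AP-1 motif TGANTCA and the serum response factor CArG box. A TEAD core was found for 6 of the 9 members and in 6 of their 12 windows. Over the whole table, 14.3% of 27305 genes and 11.9% of 35116 windows held one. Those shown are upstream windows of CCN2, NUAK2 and LATS2, which rose at both times, and of ANKRD1, which did not pass, all on the minus strand, written 5′ to 3′ with TEAD and AP-1 matches in capitals. They lie at chr6:131951373-131951622 (CCN2), chr1:205321746-205321995 (NUAK2), chr13:21061587-21061836 (LATS2) and chr10:90921088-90921337 (ANKRD1).
CCN2: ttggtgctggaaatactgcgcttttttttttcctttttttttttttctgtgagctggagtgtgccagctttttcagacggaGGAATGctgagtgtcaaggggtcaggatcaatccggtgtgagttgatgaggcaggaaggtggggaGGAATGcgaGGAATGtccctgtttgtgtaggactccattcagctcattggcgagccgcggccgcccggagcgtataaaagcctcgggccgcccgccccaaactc
NUAK2: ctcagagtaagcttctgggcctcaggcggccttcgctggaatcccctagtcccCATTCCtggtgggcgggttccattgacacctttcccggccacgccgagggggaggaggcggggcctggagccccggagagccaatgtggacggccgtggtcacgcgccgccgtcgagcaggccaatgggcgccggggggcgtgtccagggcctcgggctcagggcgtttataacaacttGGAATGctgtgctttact
LATS2: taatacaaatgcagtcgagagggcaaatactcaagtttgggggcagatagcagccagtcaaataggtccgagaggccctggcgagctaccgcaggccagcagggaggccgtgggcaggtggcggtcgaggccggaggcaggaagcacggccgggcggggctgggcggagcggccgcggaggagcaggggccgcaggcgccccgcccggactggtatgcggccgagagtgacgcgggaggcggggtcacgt
ANKRD1: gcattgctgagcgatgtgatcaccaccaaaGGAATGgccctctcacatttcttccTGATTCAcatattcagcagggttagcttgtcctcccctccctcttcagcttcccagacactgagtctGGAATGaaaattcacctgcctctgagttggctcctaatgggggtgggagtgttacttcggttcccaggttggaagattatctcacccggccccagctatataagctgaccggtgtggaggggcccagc

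CCN2 held 3 TEAD cores, the nearest ending 90 bases before the start and the farthest beginning 169 bases before it. NUAK2 held 2, one ending 13 bases before the start, and ANKRD1 held 2 together with an AP-1 match. LATS2 held no match to any of these motifs. AMOTL2 held 1 core before the downstream of its 2 starts, in the 30 bases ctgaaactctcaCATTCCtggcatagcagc at chr3:134374499-134374528, and AJUBA held 1, likewise before the downstream of 2 starts, in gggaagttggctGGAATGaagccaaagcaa at chr14:22976884-22976913, both on the minus strand. The window of F3 held 2 AP-1 matches and no TEAD core, and those of AXL held 1 TEAD core, before the second of its 2 starts. A TEAD core was thus present for 4 of the 5 matched members called at either time and for 2 of the 4 not called. Over all genes of the table the share was 14.3%. For AMOTL2, AJUBA and AXL the window with the core overlapped the gene itself, and which start these cells use was not measured. AP-1 matches were in 6.57% of all windows, and the CArG box, which none of the 9 matched members held, in 1.16%. A match is a string of letters and not a measured binding site.

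**Figure D2:**
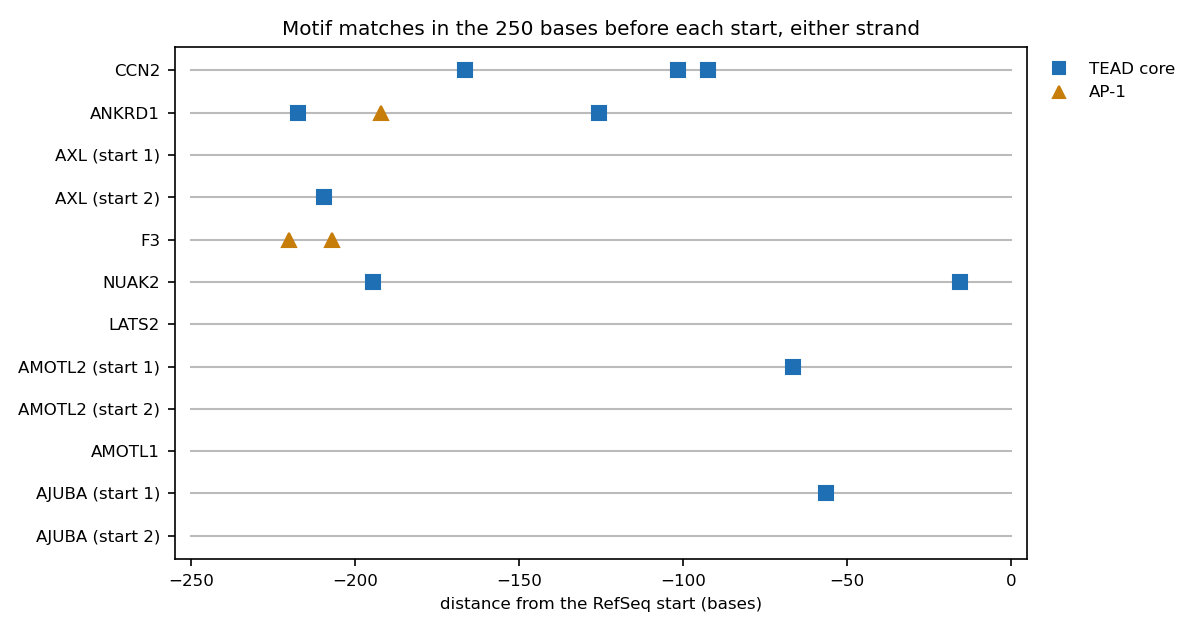
Position of each motif match before the start (horizontal axis, bases) for each RefSeq start of the 9 matched members (rows). Squares are TEAD cores and triangles AP-1 matches on either strand; CCN2 holds 3 TEAD cores within 169 bases of the start and LATS2 holds none in the 250 bases.

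CCN1 and CCN2 encode secreted matricellular proteins that bind integrins, and they are the most used YAP and TAZ readouts. CCN2 read 7.93, 7.83 and 8.52 on the control arrays, 9.24, 9.26 and 9.04 at 8 h, and 9.83, 9.77 and 9.66 at 20 h. The 3 groups did not overlap and lay in the order control, 8 h, 20 h. CCN2 rose by 1.09 at 8 h (SE 0.16, limma adjusted p = 0.00176), a 2.13-fold rise with a 95% interval of 1.66 to 2.72, and by 1.66 at 20 h (SE 0.16, limma adjusted p = 2.71e-05), a 3.16-fold rise. Its 20 h level was above its 8 h level by 0.57 (SE 0.16, limma adjusted p = 0.0276). That last call ended when any 1 treated array was left out, with adjusted p of 0.0587, 0.0523 and 0.104 for the 8 h arrays in turn and 0.0826, 0.077 and 0.0533 for the 20 h arrays. It also ended with the replicate number as a block (0.0516).

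CCN1 read 9.51, 9.70 and 10.43 on the control arrays, 10.08, 10.14 and 10.04 at 8 h, and 10.59, 10.60 and 10.52 at 20 h. Control replicate 3 was higher than all 3 arrays at 8 h, so those groups overlapped, while every 20 h array was above every control array. The difference at 8 h was 0.21 (SE 0.19, 95% interval -0.22 to 0.63, limma adjusted p = 0.586), and at 20 h CCN1 rose by 0.69 (SE 0.19, limma adjusted p = 0.0193), or 1.61-fold. Without control replicate 3 the difference at 8 h was 0.48 and passed (limma adjusted p = 0.00695), and that at 20 h was 0.96 (adjusted p = 4.39e-05). Leaving out the first or second control ended the 20 h call (adjusted p = 0.0704 and 0.0753), as did leaving out the first or second 20 h array (0.0561 and 0.0581). The difference between 20 h and 8 h was 0.48 (SE 0.19, limma adjusted p = 0.104), and passed without control replicate 3 (adjusted p = 0.002), which enters only through the shared estimate of spread.

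ANKRD1, AXL and F3 are targets with other roles: ANKRD1 encodes a nuclear and sarcomeric ankyrin repeat protein, AXL a receptor tyrosine kinase for GAS6, and F3 tissue factor, which starts coagulation. ANKRD1 read 10.07, 10.09 and 9.39 on the control arrays, 9.93, 9.94 and 9.98 at 8 h, and 9.93, 9.88 and 9.64 at 20 h. Control replicate 3 was the lowest of the 9 arrays and the other controls were the highest, so the treated arrays lay inside the control range. The difference was 0.10 at 8 h (95% interval -0.27 to 0.48, limma adjusted p = 0.794) and -0.034 at 20 h (95% interval -0.41 to 0.34, adjusted p = 0.909). Without control replicate 3 the same differences were -0.13 and -0.26 (adjusted p = 0.512 and 0.0767), so the sign at 8 h rested on that array. The 20 h difference was above 0 when the first control (0.076), the second control (0.084) or the third 20 h array (0.054) was left out.

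AXL read 10.38, 10.39 and 10.89 on the control arrays, 10.30, 10.34 and 10.07 at 8 h, and 10.38, 10.58 and 10.56 at 20 h. All 8 h arrays were below all controls, and the difference of -0.32 did not pass (SE 0.14, 95% interval -0.64 to -0.0032, limma adjusted p = 0.204). At 20 h the groups overlapped and the difference was -0.046 (95% interval -0.36 to 0.27, adjusted p = 0.849). It was 0.12 without control replicate 3 and 0.015 without 20 h replicate 1, so its sign was not settled.

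F3 read 10.05, 9.97 and 10.02 on the control arrays, 10.02, 10.05 and 10.11 at 8 h, and 10.05, 10.07 and 10.13 at 20 h. Within groups the SD was 0.04 to 0.05, and the treated arrays lay within 0.1 of the highest control. The differences were 0.048 at 8 h (SE 0.0715, 95% interval -0.11 to 0.21, limma adjusted p = 0.767) and 0.072 at 20 h (SE 0.0715, 95% interval -0.087 to 0.23, adjusted p = 0.505). On the linear scale the 20 h interval ran from 0.942-fold to 1.17-fold.

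NUAK2 encodes a kinase of the AMPK-related family that YAP raises and that promotes actomyosin tension. It read 3.58, 3.88 and 3.93 on the control arrays, then 5.86, 6.01 and 5.50 at 8 h and 5.56, 5.73 and 5.69 at 20 h. Every treated array was above every control array by more than 1.5 log2 units, and the treated groups overlapped each other. NUAK2 rose by 1.99 at 8 h (SE 0.14, limma adjusted p = 2.31e-05), or 3.98-fold. It rose by 1.87 at 20 h (SE 0.14, limma adjusted p = 5.1e-06), or 3.64-fold. Its control mean of 3.80 was below the median of all genes (3.89) and was not shown to be above background, so these are folds of the RMA values and not of a measured control level. Its levels at 20 h and 8 h differed by -0.13 (SE 0.14, 95% interval -0.44 to 0.18, adjusted p = 0.582).

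LATS2 encodes one of the kinases that phosphorylate YAP and TAZ, and is itself raised by them. It read 6.29, 6.16 and 6.63 on the control arrays, 7.84, 7.94 and 7.88 at 8 h, and 7.94, 8.06 and 8.08 at 20 h. The controls lay apart from both treated groups, which overlapped. LATS2 rose by 1.52 at 8 h (SE 0.12, limma adjusted p = 3.91e-05), or 2.87-fold, and by 1.66 at 20 h (SE 0.12, limma adjusted p = 3.12e-06), or 3.16-fold. The 20 h and 8 h levels differed by 0.14 (SE 0.12, 95% interval -0.12 to 0.39, adjusted p = 0.456). LATS1, the paralogue, rose by 0.54 at 8 h and 0.34 at 20 h (limma adjusted p = 0.00123 and 0.00536).

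The angiomotin-like proteins AMOTL1 and AMOTL2 bind YAP and TAZ at junctions and on actin and hold them out of the nucleus. AMOTL2 read 5.71, 5.48 and 6.08 on the control arrays, 6.44, 6.44 and 6.40 at 8 h, and 6.88, 7.05 and 7.11 at 20 h. The 3 groups did not overlap and lay in the order control, 8 h, 20 h. AMOTL2 rose by 0.66 at 8 h (SE 0.14, limma adjusted p = 0.0104), or 1.59-fold, and by 1.26 at 20 h (SE 0.14, limma adjusted p = 5.84e-05), or 2.39-fold. The step from 8 h to 20 h was 0.59 (SE 0.14, limma adjusted p = 0.0106).

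AMOTL1 read 6.61, 6.66 and 6.68 on the control arrays, 6.61 on each 8 h array, and 6.57, 6.51 and 6.62 at 20 h. The 8 h and first control arrays held the same value to every deposited digit, as RMA summaries of a probe set can, and 10.7% of all genes had a value repeated on 4 or more arrays. The differences were -0.041 at 8 h (95% interval -0.20 to 0.12, limma adjusted p = 0.803) and -0.085 at 20 h (95% interval -0.24 to 0.071, adjusted p = 0.418). AMOTL1 was the only member with another probe set, which ranged from 3.55 to 4.72 and gave -0.23 at 8 h and -0.51 at 20 h (SE 0.18, limma adjusted p = 0.517 and 0.0571). Neither probe set passed, and the dimmer one gave the larger difference.

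AJUBA encodes a LIM-domain scaffold of adherens junctions that binds LATS kinases and restrains them. It read 6.46, 6.60 and 6.53 on the control arrays, 5.98, 5.95 and 5.84 at 8 h, and 6.28, 6.28 and 6.15 at 20 h. The 3 groups did not overlap, and the 20 h arrays lay between the others. AJUBA fell by 0.61 at 8 h (SE 0.08, limma adjusted p = 0.00105), to 0.657 of the control level with a 95% interval of 0.58 to 0.744, and by 0.29 at 20 h (SE 0.08, limma adjusted p = 0.0192). The 20 h level was above that at 8 h by 0.31 (SE 0.08, limma adjusted p = 0.0183). Its 20 h call against control ended when the second control (adjusted p = 0.0706) or the third 20 h array (0.065) was left out, and with quantile normalization repeated (0.156). That between 20 h and 8 h ended when the third 8 h array (0.0659) or the first or second 20 h array (0.0546 and 0.0591) was left out.

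**Figure D3:**
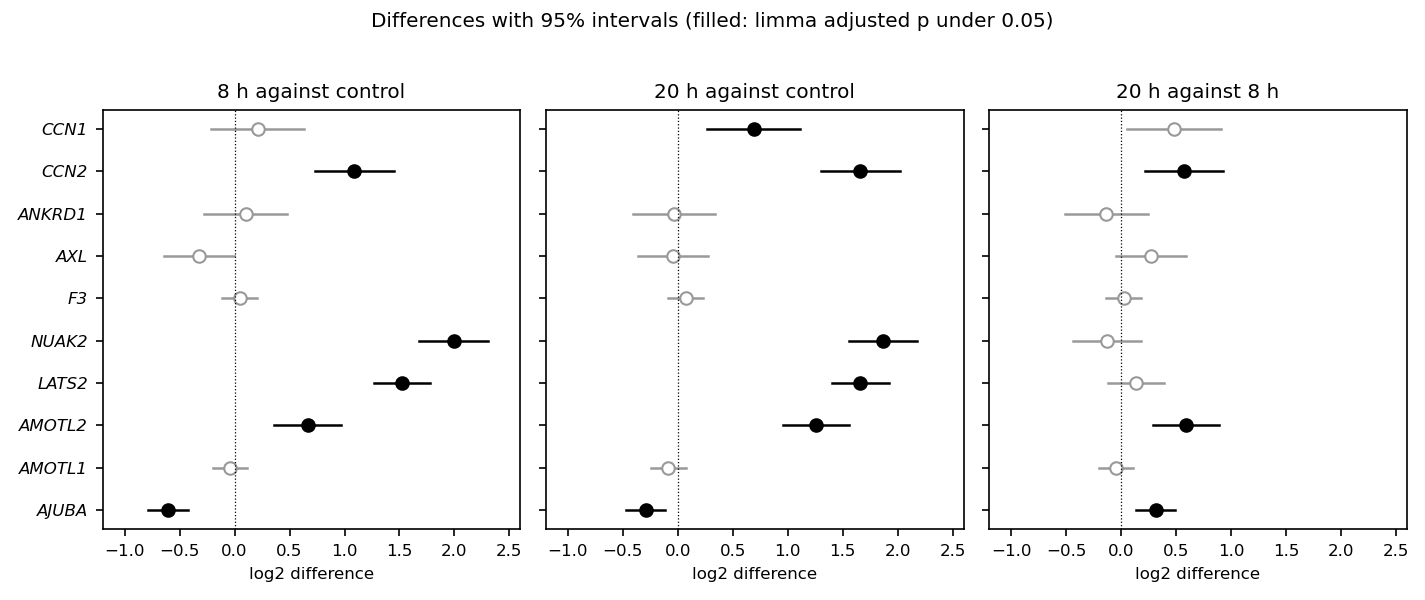
Log2 difference of each member (horizontal axis) with its 95% interval in the 3 comparisons (panels). Filled points passed an adjusted p under 0.05 in limma; NUAK2 and LATS2 sit near their 8 h position at 20 h, CCN2 and AMOTL2 lie farther right at 20 h, and AJUBA is the only filled point left of 0.

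Between 20 h and 8 h, 3 members were higher (CCN2, AMOTL2 and AJUBA) and 0 lower, where 8.95% of all genes were higher and 13.6% lower (22.6% in either direction). Of the 11054 genes above the median level, fitted alone, 1818 were higher and 3066 lower. All 3 arrays of 20 h lay above those of 8 h for 5 members, adding CCN1 and AXL, and below for 0, against 17.8% and 20.5% of all genes. The AJUBA level at 20 h was nearer to control than that at 8 h, and the levels of CCN2 and AMOTL2 were farther from control. Left-out arrays moved this count from 3 to between 1 and 4: it was 1 when 8 h replicate 3, 20 h replicate 1 or 20 h replicate 2 was left out. Dose and time cannot be told apart in this comparison.

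Control replicate 3 stood apart from the other controls, for these genes and for the brighter genes as a whole. It was above both other controls for 7 of the 10 members and below both for 1, ANKRD1, a count not made over all genes. Its median difference from their mean was 0.30 over the members. Its difference from either of the other controls had, over the genes above the median of all levels, an SD of 0.312 or 0.313, against 0.187 for the difference between them. Without it, 5 members rose and 1 fell at 8 h, CCN1 being the addition, and 5 rose and 1 fell at 20 h. NUAK2, LATS2, CCN2 and AMOTL2 rose at both times in all 20 settings tried, including this one, with differences at 8 h from 0.53 (AMOTL2) to 2.14 (NUAK2).

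**Figure D4:**
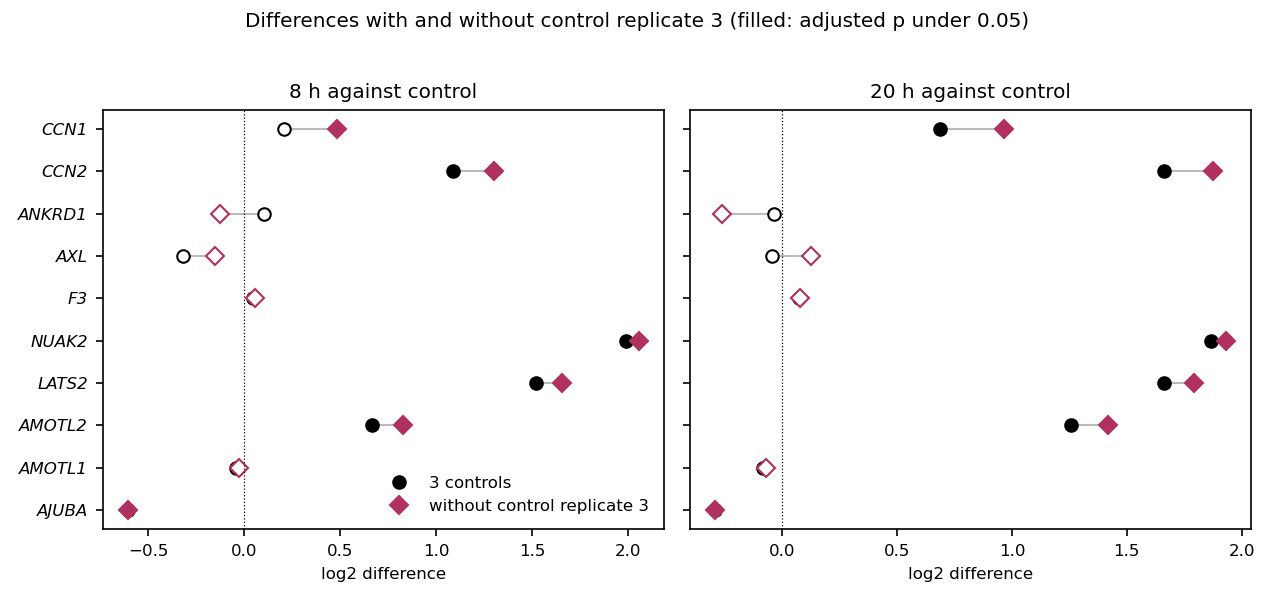
Log2 difference of each member from control at 8 h and 20 h (panels, horizontal axis) with all 3 controls (circles) and without control replicate 3 (diamonds), filled where the adjusted p was under 0.05. The CCN1 difference at 8 h moves from 0.21 to 0.48 and becomes filled, ANKRD1 moves left in both panels, and F3, AMOTL1 and AJUBA hardly move.

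A further list held 14 genes of published YAP and TAZ signatures, all measured. At 8 h, 3 of them rose and 0 fell, with a median difference of 0.0779. The counts of this and the following lists are to be set against the shares over all genes. Those shares were 5.93% higher and 6.28% lower at 8 h and 13.1% and 17.2% at 20 h. The shares among brighter genes were larger. The 3 genes that rose at 8 h were GADD45A (1.39), IGFBP3 (0.74) and ASAP1 (0.71), with limma adjusted p of 1.13e-05, 0.0016 and 0.00171. GADD45A is a growth arrest gene that other stress pathways also raise. IGFBP3 is an insulin-like growth factor binding protein and ASAP1 an Arf GTPase-activating protein. At 20 h, 5 rose and 6 fell, with a median of 0.0389 (5 and 5, and 0.0954, without control replicate 3). GADD45A, IGFBP3 and ASAP1 rose by 1.93, 1.10 and 0.70, and DOCK5, a Rac exchange factor, fell by 0.59 (limma adjusted p = 0.000311). So this list had calls in both directions at 20 h, at a combined 11 of 14 against 30.3% of all genes. The lowest control mean in the list was 4.82 (IGFBP3), above the median of all genes (3.89). Of the 11054 genes above the median level, fitted alone, 2456 were higher and 3694 lower at 20 h. That share is larger than 30.3%, so the contrast with all genes overstates how far the list stood apart from brighter genes. At 8 h, leaving out control replicate 3 added 1 lower gene, TGFB2. With all arrays, TGFB2 was among the 6 genes that fell at 20 h (-0.85, limma adjusted p = 0.01).

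The coactivators and their partners were a list of 10 genes, all measured. At 8 h, 1 rose, VGLL3, a vestigial-like cofactor of the TEAD factors, and 0 fell. The control level of VGLL3 was 4.43 ± 0.16, that at 8 h 5.97 ± 0.12 and that at 20 h 6.72 ± 0.10 (SD, n = 3 each). It rose by 1.54 at 8 h and by 2.29 at 20 h (limma adjusted p = 1.9e-05 and 2.86e-07). At 20 h, 2 of the list rose and 4 fell, with a median of -0.0604. TEAD4 rose by 0.46, while TEAD2 fell by 0.71, VGLL4, a TEAD-binding antagonist of YAP, by 0.40, YAP1 by 0.32 and TEAD1 by 0.21 (limma adjusted p = 0.00797, 0.00922, 0.00502, 0.0175 and 0.048). The call of YAP1 ended without 20 h replicate 1 (adjusted p = 0.0608), and that of TEAD1 ended whichever array was left out (0.0682 to 0.106), apart from 8 h replicate 3. Without 20 h replicate 1, 2 of the list fell. WWTR1, which encodes TAZ, differed by 0.12 at 8 h and -0.085 at 20 h (adjusted p = 0.479 and 0.536). TEAD3, VGLL1 and VGLL2 passed in neither comparison.

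Of the upstream Hippo kinases and adaptors, 14 of 15 listed genes were measured. At 8 h, 3 rose and 0 fell, with a median of 0.115: SAV1, the scaffold of the MST kinases, by 0.72, FRMD6, a FERM-domain activator of the pathway, by 0.58, and LATS1 as given above. At 20 h the same 3 genes rose and 3 fell, against 13.1% and 17.2% of all genes, with a median of -0.12. FRMD6 rose by 0.75 and SAV1 by 0.64, while MOB1A, the LATS cofactor, fell by 0.69, STK4, which encodes the kinase MST1, by 0.58, and MOB1B by 0.40 (limma adjusted p = 6.04e-05, 0.000355 and 0.0164). Without control replicate 2 or 20 h replicate 1, 2 of the list fell, MOB1A and STK4.

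Among relatives and partners of the members, 14 of 15 listed genes were measured, with 4 higher and 0 lower at 8 h and 3 higher and 1 lower at 20 h. The lower one was LIMD1, another AJUBA relative that restrains LATS kinases, which fell by 0.39 (limma adjusted p = 0.0105). TFPI2, a Kunitz-type protease inhibitor related to the tissue factor inhibitor, rose by 0.55 and 1.52 (limma adjusted p = 0.0106 and 5.1e-06), and TFPI, the tissue factor pathway inhibitor itself, by 0.45 at 8 h (adjusted p = 0.00891), with 0.21 at 20 h (adjusted p = 0.116). CCN3, of the same family as CCN1 and CCN2, rose by 0.57 and 0.56 (adjusted p = 0.0128 and 0.00543). WTIP, of the same AJUBA family, rose by 0.69 at 20 h (adjusted p = 0.000422). Its 8 h rise of 0.38 (adjusted p = 0.0347) did not pass when control replicate 1 or 3 was left out (0.0705 and 0.0806), or 8 h replicate 1 or 2 (0.121 and 0.109).

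CCN1, CCN2 and ANKRD1 also respond to serum response factor (SRF), and YAP, TAZ and TEAD share enhancers with AP-1 factors, so both groups are given. Of 14 measured SRF targets, including SRF, 2 rose and 1 fell at 8 h, and 4 rose and 5 fell at 20 h, with medians of 0.0722 and 0.0654 (0.166 and 0.152 without control replicate 3). FHL2, a LIM cofactor, rose by 0.46 and 0.51, ZYX, the focal adhesion protein zyxin, rose by 1.01 at 20 h, and TPM1, a tropomyosin, and VCL, vinculin, fell by 0.69 and 0.56 at 20 h (limma adjusted p = 0.000223 and 0.000806). Without control replicate 3, 4 SRF targets rose at 8 h and 4 fell at 20 h. Without 8 h replicate 1 or 3, 0 fell at 8 h. Over all left-out arrays, 4 to 5 fell at 20 h. Of the 8 AP-1 genes, 5 rose and 0 fell at 8 h and 8 rose at 20 h, with medians of 0.735 and 2.52. Without control replicate 3, 7 rose at 8 h, and over all left-out arrays 4 to 7. FOSB rose by 2.19 and 4.14, ATF3 by 2.63 and 3.57, JUN by 0.70 and 1.46, and JUNB by 3.14 at 20 h. JUNB differed by 0.77 at 8 h (limma adjusted p = 0.0981), and by 1.16 without control replicate 3 (adjusted p = 0.000612). Whether the AP-1 rise has a part in the rise of the members was not tested.

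**Figure D5:**
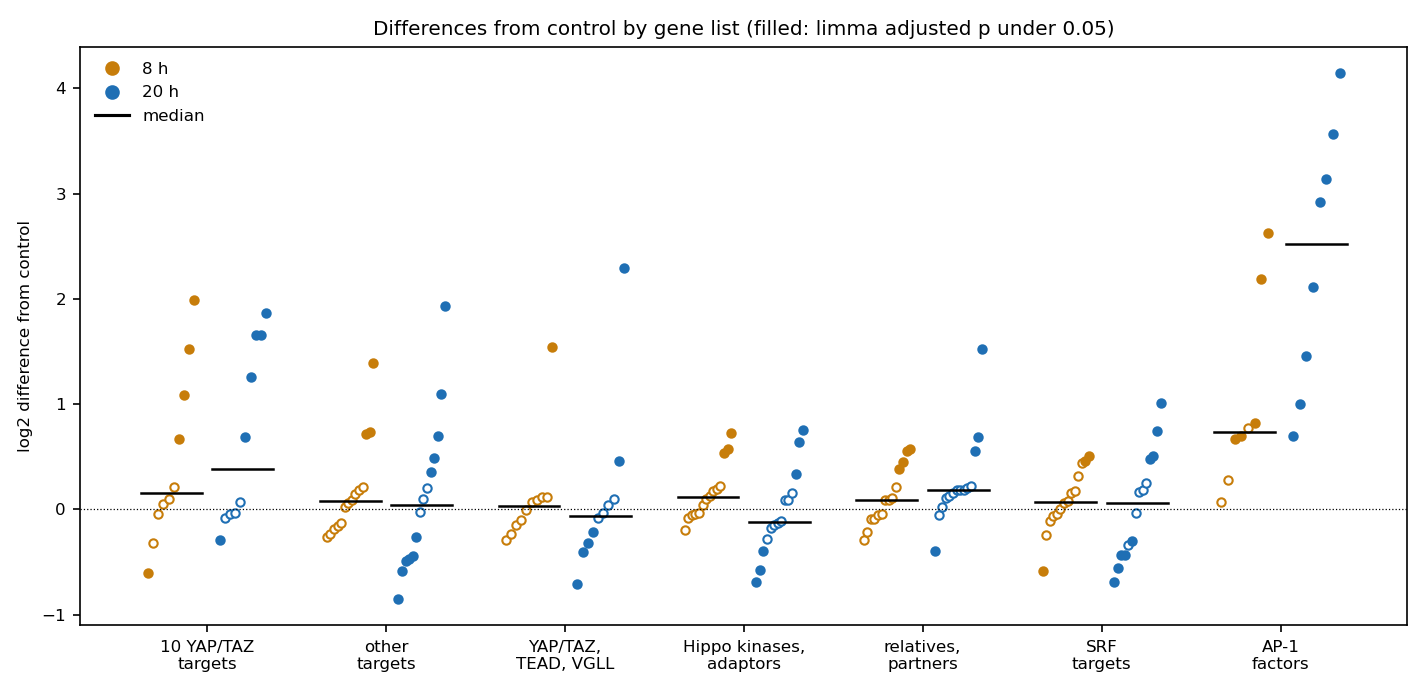
Log2 difference from control of each measured gene (vertical axis) by gene list (horizontal axis), at 8 h and 20 h (colours). Filled points passed an adjusted p under 0.05 in limma and lines are medians. The 10 targets hold risers, genes that did not pass and 1 gene called lower at both times, AJUBA. The list of other targets and the Hippo lists also spread to both sides of 0 at 20 h, and all 8 AP-1 points at 20 h lie above 0.

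Genes with the most similar profile to a member over the 9 arrays were named for each member from 1359 genes, as a description. The closest to CCN2 were DUSP14 and INO80D (Pearson r = 0.998 for both), to LATS2 RAPGEF2 and NFATC2 (0.998 and 0.997), to AMOTL2 BAG3 and RPL28 (0.996 for both) and to NUAK2 NDRG1 and GRB10 (0.990 and 0.988). For CCN1 they were WIPF2 and HS6ST3 (0.965 and 0.962), and for AJUBA TXNIP and ZNF79 (0.957 and 0.949). Genes nearest to AMOTL1 were EXOG and CIAO2A (0.915 and 0.891), to AXL MRPL4 and LPCAT4 (0.818 and 0.743), and to F3 CREB5 and SKIL (0.774 and 0.766). ANKRD1 had no gene above 0.619, the value for MCTS2, with XRCC4 at 0.618. The 9 arrays fall into 3 groups, so these values can follow the 3 group means. The candidates were required to span at least 1 log2 unit between group means. Spread within groups also enters. For CCN1, ANKRD1 and AXL the control SD (0.49, 0.39 and 0.29) was larger than the SD over all 9 arrays (0.39, 0.22 and 0.23). How much of each value rests on either was not tested.

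The cell type label was checked on marker genes. VIM, CD44, MSN, CAV1 and ZEB1, markers of mesenchymal-type breast lines, read 6.02 to 10.61. Of these, CD44 and ZEB1 were higher at 8 h (0.43 and 0.48) and CAV1 was lower at 8 h and 20 h (-0.38 and -0.48), while VIM and MSN did not pass. The 7 luminal markers such as ESR1 and PGR read 1.81 to 5.36, the 5 leukocyte markers 1.67 to 4.35 and the 6 stromal and endothelial markers 1.66 to 4.19. At 8 h, 2 of the 7 luminal markers (TFF1 and CDH1) were higher, against 5.93% of all genes, and without control replicate 3 only TFF1 (CDH1 limma adjusted p = 0.0773). At 20 h, 3 of the 5 leukocyte markers (CD14, CD79A and ITGAM) and 1 of the 7 luminal markers (TFF1) were higher, and 0 of the 6 stromal and endothelial markers, against 13.1% of all genes. Without control replicate 3, ITGAM did not pass (limma adjusted p = 0.0722). The control means of CD14, CD79A and ITGAM were 3.16, 3.45 and 2.23. These lay below the median of all genes (3.89) and were not shown to be above background. On the linear scale the summed luminal level was 84.8 to 99 in controls, 95.6 to 96.5 at 8 h and 114 to 122 at 20 h, and the summed leukocyte level 28.6 to 34.4, 32.8 to 37 and 38.4 to 52.2. In the luminal sum, TFF1 rose by 1.38 log2 units at 20 h (limma adjusted p = 2.18e-06), and no other luminal marker passed then. PTPRC and CD3E, which define leukocytes and T cells, had group means below 2 throughout and did not pass. The part of these markers in the results on the members was not tested.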

How the data were processed

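RNA from 9 samples was labelled and hybridised to Affymetrix whole-transcript arrays. The deposited values are log2 RMA summaries, 1 per probe set and array, made by the authors with RMA in Affymetrix Expression Console, per the submitters' processing notes. Software versions and genome build are not given in the sources used here. Of 53617 probe sets, 23558 had 1 symbol in the platform table, which gave 22109 genes after keeping the brightest probe set of each. Probe sets with several symbols or outside that table were left out. Groups were read from the sample titles.

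A model of group means over all 9 arrays used limma's lmFit and eBayes (version 3.58.1, under R 4.3.3; 6 residual and 4.01 prior degrees of freedom). Tests were two-sided, with Benjamini-Hochberg adjustment over all genes and calls at 0.05. The number of arrays limits the precision.

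The members, lists, tests and naming rules were chosen with earlier results of these data known. Named genes were all members and up to 4 called genes per list with the smallest adjusted p (lists of at most 10 could be named in full). The 2 most similar genes per member came from genes above the median level, without unnamed loci, small RNAs and antisense transcripts. Alternatives were 9 left-out arrays and 10 other settings: averaged probe sets, all probe sets, brighter genes only, quantile normalization again, median centring, fits of 2 groups at a time, a trended and robust variance, array weights, the replicate block, and 8 h replicates 1 and 2 counted as 1. Their use on the other lists was added after seeing the data. SAV1, MOB1B, LIMD1 and TGFB2 were named after their values were seen. Sequences are from RefSeq (GRCh38.p14). Tables and figures used Python 3.11.15, pandas 2.3.3 and matplotlib 3.10.9.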

Additional observations from a re-analysis of the deposited data

Results flagged for a closer look

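For 3 of the 10 members, the difference from control at 20 h was not the same as that at 8 h by the test of the difference itself, which is the 20 h against 8 h comparison (limma, adjusted over all genes). CCN2 was higher at 20 h than at 8 h by 0.57 (adjusted p = 0.0276, all 3 arrays above), AMOTL2 by 0.59 (adjusted p = 0.0106, all 3 above) and AJUBA by 0.31 (adjusted p = 0.0183, all 3 above). All 3 arrays of 20 h lay above those of 8 h for 17.8% of all genes. The CCN2 call ended when any treated array was left out (adjusted p from 0.0523 to 0.104) and with the replicate block (0.0516), and the AJUBA call without 8 h replicate 3, 20 h replicate 1 or 20 h replicate 2 (0.0546 to 0.0659). The AMOTL2 call held under all these. For CCN2 and AMOTL2 the 20 h level was the farther from control, and for AJUBA the nearer. The groups differ in dose and in time, which cannot be told apart.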

How the results depend on the processing

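Among 570 values of the members under alternatives, 533 kept their direction and side of the threshold. The count of members lower at 20 h was 0 with quantile normalization repeated and ranged from 0 to 1 over left-out arrays, and the count higher at 20 h against 8 h ranged from 1 to 4. Signs turned only for members that had not passed. For ANKRD1 the 8 h difference was -0.036 with array weights and ranged from -0.13 to 0.22 over left-out arrays, and the 20 h difference ranged from -0.26 to 0.084. For AXL the 20 h difference was 0.052 with array weights and ranged from -0.13 to 0.12. With quantile normalization repeated, AMOTL1 gave 0.037 at 20 h and 0.079 for 20 h against 8 h, F3 -0.058 and -0.13, and WWTR1 0.039 at 20 h; with centred arrays F3 gave -0.011 for 20 h against 8 h. The cause was not tested. CCN1 at 20 h also lost its call with quantile normalization repeated (adjusted p = 0.0547) and with only the 2 groups compared (0.0568). It passed for 20 h against 8 h with only those groups (0.00268) and with array weights (0.0353). CCN2 for 20 h against 8 h lost its call with 8 h replicates 1 and 2 counted as 1 (0.055).

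The labels state no pairing of the replicate numbers, so these were not taken to pair the arrays. Deviations of same-numbered arrays from their group means correlated between -0.318 and 0.111. With group means of only 3 arrays, these values cannot decide whether arrays were paired. With the replicate block, 2204, 6331 and 4519 genes were called at 8 h, at 20 h and between them, against 2698, 6704 and 4991 without, and CCN2 for 20 h against 8 h had an adjusted p of 0.0516. TEAD1 at 20 h had 0.0848. Signal over background was not analysed here, so a low level such as that of NUAK2 in controls has no stated bound.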
